A study of Mus musculus with 9 samples.

Results

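Collagen leaves the fibroblast only after a series of enzymes and a chaperone have acted on it, and it gains strength outside the cell through crosslinks. Prolyl hydroxylases modify proline residues so that the triple helix is stable at body temperature, lysyl hydroxylases modify lysine residues that later carry crosslinks and sugars, and the chaperone Hsp47 binds the folded procollagen on its way to the Golgi. Outside the cell, Bmp1 removes the carboxy-terminal propeptide, and copper-dependent lysyl oxidases convert lysine and hydroxylysine to aldehydes that form the covalent bonds of collagen and elastin fibres. In the heart most of this machinery belongs to fibroblasts, and crosslinked collagen is known for stiffening the ventricular wall.

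The genes described here are 10 members of this pathway, chosen by name: the lysyl oxidase genes Lox, Loxl1, Loxl2 and Loxl3, the prolyl 4-hydroxylase subunit genes P4ha1 and P4ha3, the lysyl hydroxylase genes Plod1 and Plod2, the procollagen protease gene Bmp1, and Serpinh1, which encodes Hsp47. All 10 were found among 41710 gene names and all 10 were among the 15504 genes that passed the expression filter. Their transcripts were measured in the hearts of male FVB/N mice aged 8 months by single-read sequencing of 50 bases on random-primed cDNA of fragmented mRNA. The 3 groups of n = 3 hearts were Tg-RKIP mice, which carry an RKIP transgene under the myocardium-specific alpha-MHC promoter and had symptoms of heart failure, mice labelled Tg-GRK2, whose promoter is not given in the sources used here, and FVB mice without a transgene.

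The libraries held 25458108 to 33447654 reads. Pebp1, the gene of RKIP, was 49.9-fold higher in TPM in the Tg-RKIP hearts than in FVB. Grk2 was 1.01-fold the FVB level in the Tg-GRK2-labelled hearts, with a log2 fold change of 0.054 and an adjusted p of 0.354, so that this group is named by its label throughout, as Tg-GRK2-labelled hearts. The 8 cardiomyocyte markers summed to at least 45900 TPM in every library, as in heart muscle. Mitochondrially encoded genes took 11.5% to 11.8% of the reads in Tg-RKIP and 22.4% to 23.2% in the other libraries, and the values below are therefore given on 2 scales. TPM divides reads by transcript length and rescales them to the same total in each library. The log2 fold changes are those of reads normalised by the TMM method of edgeR, which centres most genes on 0. The median of all genes tested was a log2 fold change of 0.0085 between Tg-RKIP and FVB with TMM and 0.384 with scaling to library size alone, and by the latter 9710 genes were called higher and 2649 lower instead of 5709 and 5751.

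In the Tg-RKIP hearts every one of the 10 genes was higher than in FVB, and the size of the difference ran from P4ha3 and Lox at the top to Plod1 at the bottom. All 10 passed the threshold of an adjusted p of 0.05 in the higher direction, where 36.8% of all genes tested did and 37.1% passed in the lower direction. No TPM value of the 2 groups overlapped for any of the 10, which was so, in that direction, for 64.3% of all genes tested. The median log2 fold change of the 10 was 0.883, beside 0.0085 for all genes tested, and those of the 10 ran from 0.099 to 3.83. With the Tg-GRK2-labelled hearts left out of the fit, 10 of the 10 again passed.

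In the hearts labelled Tg-GRK2 the same genes lay closer to FVB, with log2 fold changes of 0.067 to 0.523. Of the 10, 7 were higher than in FVB past the threshold, where 12.2% of all genes tested were called higher and 12.2% lower. Lox, Loxl3 and P4ha3 did not pass, and all 3 were among the 4 genes with the largest differences between Tg-RKIP and FVB. These 3 also had the fewest reads of the 10. The log2 fold changes of Lox (0.193, SE 0.0841) and P4ha3 (0.314, SE 0.34) were less precise but larger than those of 2 genes that passed. These were Plod1 (0.15, SE 0.0302) and Plod2 (0.143, SE 0.0357). In TPM 8 of the 10 had no overlap with FVB, beside 22.9% of all genes tested. Both transgenic groups were set against the same 3 FVB hearts. Set against each other, Tg-RKIP hearts were higher for 9 of the 10 genes past the threshold, where 37.9% of all genes were called higher and 36.6% lower, and in TPM for 10 of 10 without overlap, beside 61.6% of all genes tested.

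**Figure D1:**
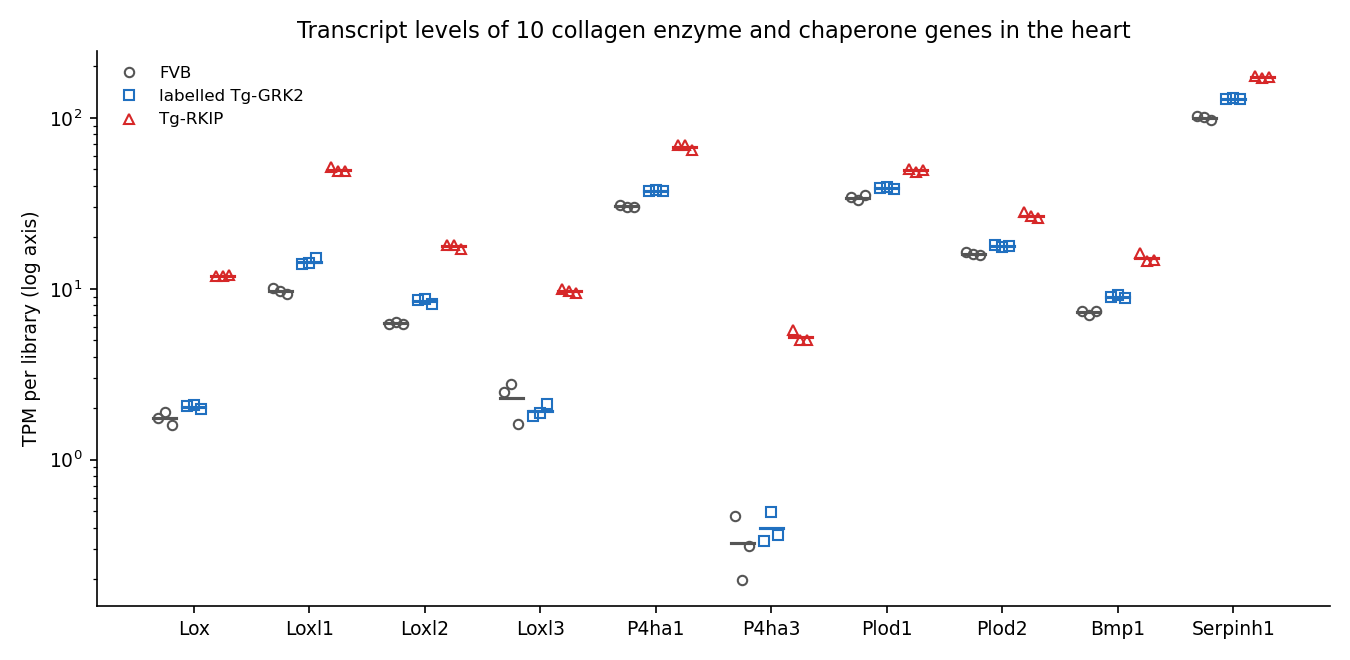
TPM of the 10 genes in each of the 9 libraries on a log axis, with circles for FVB, squares for the Tg-GRK2-labelled group, triangles for Tg-RKIP and a bar at each group mean. The Tg-RKIP triangles lie above the other symbols for each gene, by the widest gap for P4ha3, which had 5.26 TPM on average against 0.325 in FVB.

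Among the 10 genes the lysyl oxidases all had larger log2 fold changes in Tg-RKIP than Bmp1, the remaining extracellular enzyme. Lox, the founding member of the family and the main crosslinker of fibrillar collagen and elastin, lies on chromosome 18 from 52649139 to 52662939 (GRCm39, minus strand). It had 11.8, 11.8 and 12.1 TPM in the 3 Tg-RKIP hearts, 2.07, 2.08 and 1.99 TPM in the Tg-GRK2-labelled hearts and 1.75, 1.89 and 1.59 TPM in FVB. The Tg-RKIP hearts thus stood far above both other groups, which lay side by side. The log2 fold change between Tg-RKIP and FVB was 2.34 (SE 0.062, adjusted p = 7.26e-19). For the Tg-GRK2-labelled hearts it was 0.193 (SE 0.0841, adjusted p = 0.115, 95% confidence interval 0.018 to 0.368), although their TPM values did not overlap with FVB.

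Loxl1, an enzyme needed for the upkeep of elastic fibres, was the most abundant lysyl oxidase transcript in all 3 groups. The gene lies on chromosome 9 from 58195021 to 58220469 on the minus strand, and its reads all belong to 1 annotated transcript. It had 51.5, 49.0 and 48.9 TPM in Tg-RKIP, 14.0, 14.2 and 15.1 TPM in the Tg-GRK2-labelled hearts and 10.1, 9.77 and 9.26 TPM in FVB. The 3 groups were separate, and Loxl1 was also the gene with the largest difference of the 10 between the Tg-GRK2-labelled hearts and FVB. Its log2 fold change against FVB was 1.94 (SE 0.0388, adjusted p = 4.78e-21) in Tg-RKIP and 0.523 (SE 0.045, adjusted p = 1.30e-08) in the Tg-GRK2-labelled group.

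Loxl2 and Loxl3 differ from Lox and Loxl1 by scavenger receptor domains in front of the catalytic part. Loxl2, which acts on basement membrane collagen among other substrates, lies on chromosome 14 from 69846517 to 69933283 on the plus strand. It had 17.9, 18.1 and 17.1 TPM in Tg-RKIP, 8.58, 8.77 and 8.15 TPM in the Tg-GRK2-labelled hearts and 6.25, 6.40 and 6.25 TPM in FVB, again without overlap. Its log2 fold change of 1.08 in Tg-RKIP (SE 0.0381, adjusted p = 1.29e-16) was lower than that of Lox, Loxl1 and Loxl3, and it was 0.356 in the Tg-GRK2-labelled group (adjusted p = 1.49e-06).

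The Loxl3 difference in Tg-RKIP lay nearer to that of Lox than to that of Loxl2. The gene lies on chromosome 6 from 83011154 to 83029543 on the plus strand. It had 671, 860 and 621 reads in Tg-RKIP, 139, 141 and 180 in the Tg-GRK2-labelled hearts and 135, 162 and 114 in FVB, so that the latter groups overlapped. The log2 fold change was 2.02 in Tg-RKIP (SE 0.0733, adjusted p = 2.05e-16) and 0.067 in the Tg-GRK2-labelled group (SE 0.0967, adjusted p = 0.68). In TPM the sign of the latter difference was the opposite, with means of 1.93 ± 0.166 in the Tg-GRK2-labelled group and 2.30 ± 0.604 in FVB (SD, n = 3 each). In FVB replicates 1 and 2, 6.67% and 3.70% of the Loxl3 reads were assigned to a retained-intron transcript of 611 bases, and short transcripts weigh more in TPM. Htra2 overlaps Loxl3 on the other strand with up to 754 reads in a library, and the sources used here do not say whether reads were counted by strand.

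The make-up of the family changed along with its sum. With Loxl4, which was not among the 10, the 5 lysyl oxidase genes summed to 90.2 ± 2.08 TPM in Tg-RKIP, 27.7 ± 0.456 TPM in the Tg-GRK2-labelled hearts and 20.6 ± 1.27 TPM in FVB (SD, n = 3 each). Lox supplied 12.8%, 13.2% and 13.6% of this sum in Tg-RKIP and 8.23%, 8.88% and 8.35% in FVB. Loxl1 supplied 55.2% ± 0.492 in Tg-RKIP and 47.2% ± 1.37 in FVB, while the share of Loxl2 was 19.6% ± 0.476 and 30.7% ± 1.78 (SD, n = 3 each). The shares of Lox, Loxl1 and Loxl2 did not overlap between Tg-RKIP and FVB, each with p = 0.1 in an exact two-sided permutation test, the smallest p that 3 hearts against 3 allow. Neither did that of Loxl4, which was lower in Tg-RKIP (1.13% ± 0.189 against 2.53% ± 0.675, exact p = 0.1), while the Loxl3 share overlapped, at 10.8% ± 0.0695 and 11.1% ± 2.33. In the Tg-GRK2-labelled hearts the Lox share was below FVB, at 7.38% ± 0.287 against 8.48% ± 0.344 (SD, n = 3 each, exact p = 0.1), as was that of Loxl3 at 6.96% ± 0.49, and that of Loxl1 was above it at 52.0% ± 1.35.

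**Figure D2:**
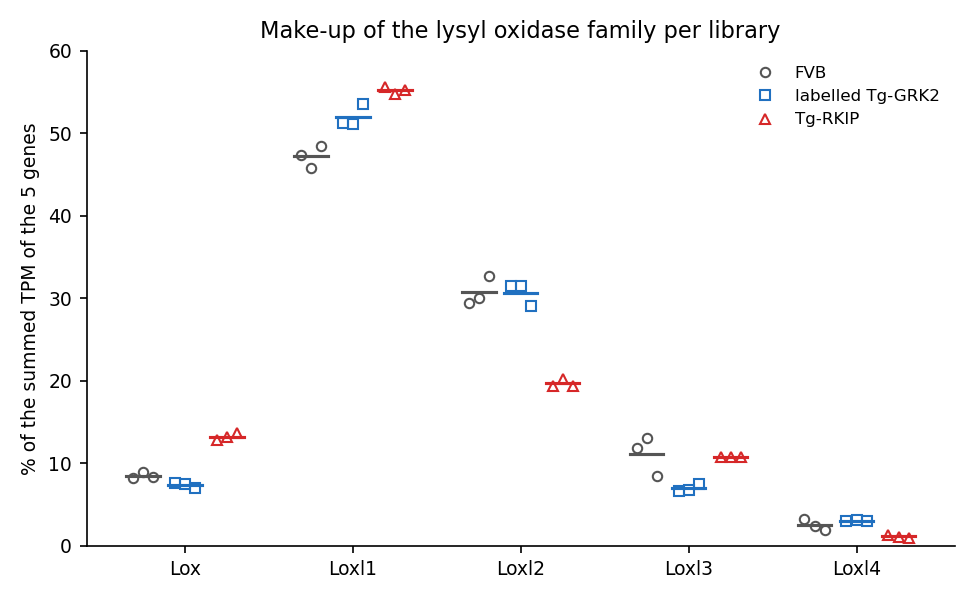
Share of each of the 5 lysyl oxidase genes in their summed TPM, in percent per library, with symbols as for the TPM plot and a bar at each group mean. In Tg-RKIP the Lox and Loxl1 shares lie above and the Loxl2 share below those of FVB, and Loxl1 supplies the largest share in every library.

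Among the hydroxylases the 2 prolyl 4-hydroxylase subunits lay at opposite ends of the range of levels. P4ha1 encodes the main catalytic alpha subunit, which works in a tetramer with the disulfide isomerase P4hb. The gene lies on chromosome 10 from 59159118 to 59209126 (plus strand) and had 69.7, 69.1 and 65.2 TPM in Tg-RKIP, 37.3, 37.8 and 37.3 TPM in the Tg-GRK2-labelled hearts and 30.8, 30.0 and 30.2 TPM in FVB. All 3 groups were separate. Its log2 fold change against FVB was 0.691 in Tg-RKIP (SE 0.0263, adjusted p = 4.82e-16) and 0.239 in the Tg-GRK2-labelled group (SE 0.0276, adjusted p = 1.08e-06). The latter was 0.131 (adjusted p = 0.25 by edgeR) with the most abundant transcript alone.

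P4ha3 encodes a less abundant alpha subunit and was close to the detection limit outside the Tg-RKIP hearts. The gene lies on chromosome 7 from 99934727 to 99968906 on the plus strand. It had 202, 235 and 174 reads in Tg-RKIP, 15, 13 and 16 in the Tg-GRK2-labelled hearts and 17, 6 and 10 in FVB. These are 5.75, 5.01 and 5.01 TPM in Tg-RKIP, and no library of the other groups exceeded 0.491 TPM. The log2 fold change in Tg-RKIP, 3.83 (SE 0.209, adjusted p = 3.22e-13), was the largest of the 10 genes and ranged from 3.47 to 4.30 when each library was left out in turn. In the Tg-GRK2-labelled group it was 0.314 with a 95% confidence interval of -0.394 to 1.02 (adjusted p = 0.565), and at 6 to 17 reads per library a difference of this size was not detectable. It was -0.042 without FVB replicate 2 and reached up to 0.794 with other libraries left out.

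Among the 10 genes, the lysyl hydroxylases Plod1 and Plod2 had the lowest log2 fold changes between Tg-RKIP and FVB, with Serpinh1 close to Plod2. Plod2 encodes the enzyme that hydroxylates lysines in the telopeptides, the sites from which the more stable crosslinks start. It lies on chromosome 9 from 92424276 to 92490481 (plus strand) and had 28.0, 26.5 and 25.9 TPM in Tg-RKIP, 18.0, 17.5 and 17.9 TPM in the Tg-GRK2-labelled hearts and 16.4, 16.0 and 15.8 TPM in FVB. The groups did not overlap, and the log2 fold change was 0.365 in Tg-RKIP (SE 0.0341, adjusted p = 3.14e-09) and 0.143 in the Tg-GRK2-labelled group (SE 0.0357, adjusted p = 0.00488). Between the transgenic groups it was 0.222 (SE 0.0332, adjusted p = 3.57e-06), but 0.006 (adjusted p = 0.95) with the most abundant transcript alone.

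Plod1, whose product hydroxylates lysines within the triple helix, was nearest to no difference of the 10 genes between Tg-RKIP and FVB. It lies on chromosome 4 from 147994210 to 148021224 (minus strand) and had 50.1, 48.5 and 49.3 TPM in Tg-RKIP, 38.9, 39.3 and 38.5 TPM in the Tg-GRK2-labelled hearts and 34.3, 33.0 and 35.3 TPM in FVB. Although the TPM values were separate, the log2 fold change of TMM-normalised reads was only 0.099 in Tg-RKIP (SE 0.0298, adjusted p = 0.0054) and 0.15 in the Tg-GRK2-labelled group (SE 0.0302, adjusted p = 7.32e-04). The former no longer passed without FVB replicate 2 (0.067) or with the most abundant transcript alone (0.081). Between Tg-RKIP and the Tg-GRK2-labelled hearts the direction flipped with the scaling, from -0.052 (SE 0.0291, adjusted p = 0.114) with TMM to 0.311 with scaling to library size alone, where the median of all genes was 0.383. It was called lower at -0.061 (adjusted p = 0.0475) in an edgeR fit of only these 6 hearts and higher with library size (adjusted p = 2.12e-09).

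Bmp1 and Serpinh1 act on procollagen as a whole. Bmp1 lies on chromosome 14 from 70711998 to 70757674 on the minus strand and had 16.2, 14.6 and 14.7 TPM in Tg-RKIP, 8.93, 9.17 and 8.78 TPM in the Tg-GRK2-labelled hearts and 7.40, 7.06 and 7.46 TPM in FVB. The 3 groups were separate. Its log2 fold change was 0.604 in Tg-RKIP (SE 0.0446, adjusted p = 6.13e-11) and 0.225 in the Tg-GRK2-labelled group (SE 0.0479, adjusted p = 0.00128).

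Serpinh1, the chaperone gene, was the most abundant of the 10 in every library. It lies on chromosome 7 from 98994583 to 99002446 (minus strand) and had 176, 171.6 and 173.3 TPM in Tg-RKIP, 129.3, 131.2 and 129.1 TPM in the Tg-GRK2-labelled hearts and 102.4, 101.4 and 97.5 TPM in FVB. Both transgenic groups were higher than FVB in TMM-normalised reads, with log2 fold changes of 0.37 (SE 0.0213, adjusted p = 8.30e-13) and 0.32 (SE 0.0216, adjusted p = 3.14e-10). The difference between the 2 transgenic groups was 0.05 (95% confidence interval 0.006 to 0.093, adjusted p = 0.0368). It lay between 0.043 and 0.060 as each library was left out in turn and missed the threshold without any one of 8 of the 9 libraries, the exception being Tg-RKIP replicate 2. It also missed it with DESeq2, with its size factors, without an expression filter, with only the groups compared and with the most abundant transcript alone, at 0.041 to 0.064 (adjusted p = 0.0705 to 0.183).

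**Figure D3:**
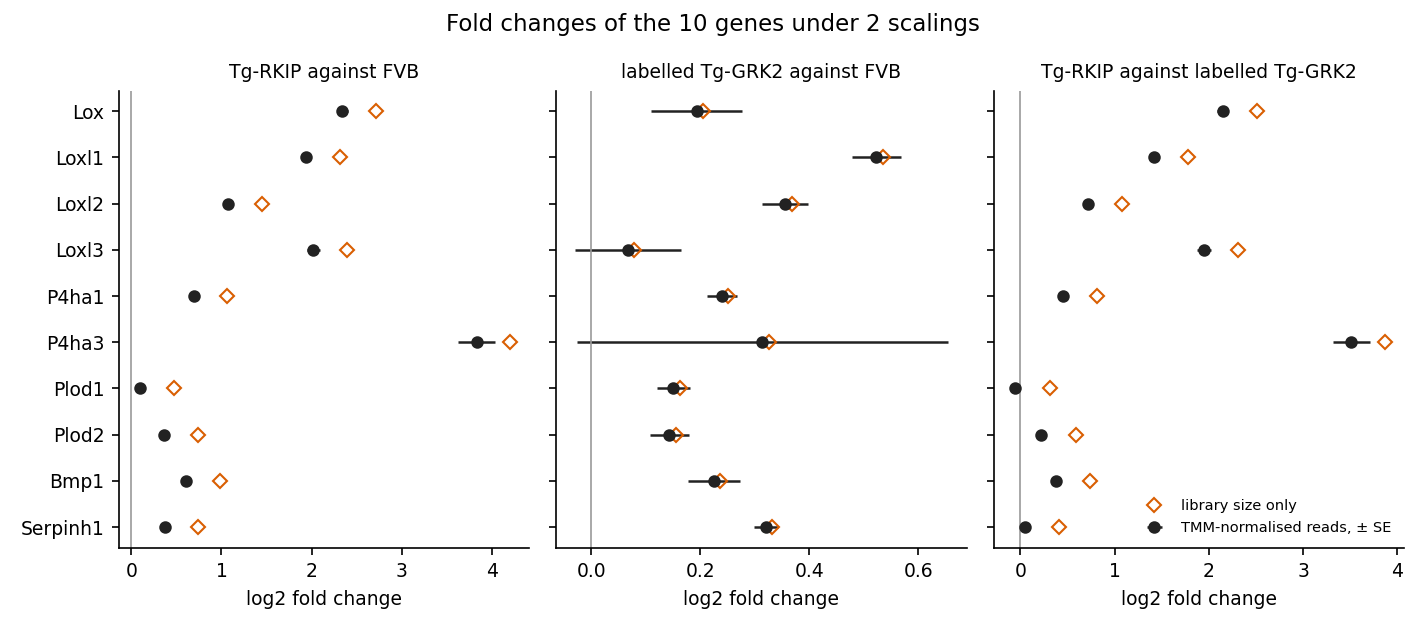
Log2 fold changes of the 10 genes in 3 comparisons, with filled circles and SE bars for TMM-normalised reads and open diamonds for scaling to library size alone. The horizontal ranges of the panels differ. In both comparisons of Tg-RKIP the diamonds lie to the right of the circles, and in the right panel the values of Plod1 lie on either side of 0 at -0.052 and 0.311.

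The order of the levels also differed between groups. In FVB hearts Serpinh1 (100.4 ± 2.62 TPM) was followed by Plod1, P4ha1, Plod2, Loxl1, Bmp1 and Loxl2, then by Loxl3 and Lox, whose values overlapped, and last by P4ha3 (0.325 ± 0.135 TPM, SD, n = 3). In Tg-RKIP P4ha1 came second at 68.0 ± 2.47 TPM, and Loxl1 at 49.8 ± 1.45 TPM overlapped with Plod1 at 49.3 ± 0.797 TPM (SD, n = 3 each). Loxl2 stood above Bmp1 in Tg-RKIP and below it in both other groups. In the Tg-GRK2-labelled hearts the first 7 genes kept the order of FVB, and Lox and Loxl3 overlapped.

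The collagens on which these enzymes act rose in Tg-RKIP by more than most of the 10 genes. All 6 substrate genes examined (Col1a1, Col1a2, Col3a1, Col5a1, Col5a2 and the elastin gene Eln) were higher in both transgenic groups than in FVB past the threshold. Their log2 fold changes ran from 1.12 for Col5a1 to 3.38 for Eln in Tg-RKIP, with a median of 1.90, and from 0.364 to 0.76 in the Tg-GRK2-labelled hearts, with a median of 0.545. Eln, the other main substrate of lysyl oxidases, was 14.2-fold higher in TPM in Tg-RKIP than in FVB. The TPM of Col1a1, Col1a2 and Col3a1 together was 898.1 ± 13.4 in Tg-RKIP, 261.0 ± 4.05 in the Tg-GRK2-labelled group and 171.2 ± 2.50 in FVB (SD, n = 3 each), or 5.25-fold and 1.53-fold the FVB level.

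The 10 genes were also set against this collagen sum within each library, a ratio that does not depend on how libraries are scaled. The sum itself rose, so that a gene with the same TPM in both groups is lower on this scale. Relative to collagen, 6 of the 10 were lower in Tg-RKIP than in FVB without overlap (Loxl2, P4ha1, Plod1, Plod2, Bmp1 and Serpinh1), beside 93.6% of all genes tested. Lox and P4ha3 were higher without overlap, beside 1.53% of all genes tested, while Loxl1 and Loxl3 overlapped with FVB. In the Tg-GRK2-labelled hearts, 8 were lower without overlap, beside 80.5% of all genes tested, and Loxl1 and P4ha3 overlapped.

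Per 100 TPM of the collagen sum, Lox stood at 1.30, 1.33 and 1.35 TPM in Tg-RKIP, with FVB values of 1.02, 1.13 and 0.923 TPM. The log2 ratio was 0.381 higher in Tg-RKIP, with p = 0.1 by exact permutation, and it turned to -0.199 when Col1a1 alone was the denominator. P4ha3 stood at 0.63, 0.566 and 0.559 TPM per 100 TPM of collagen in Tg-RKIP, with FVB values of 0.27, 0.117 and 0.181 TPM, a log2 ratio 1.71 higher (exact p = 0.1). The Loxl1 proportion overlapped between all groups, at 5.54 ± 0.0897, 5.52 ± 0.153 and 5.67 ± 0.269 TPM per 100 TPM of collagen in Tg-RKIP, the Tg-GRK2-labelled group and FVB (SD, n = 3 each). Its log2 ratio between Tg-RKIP and FVB was -0.031 with the sum, but -0.611 with Col1a1 alone and 0.27 with Col3a1 alone. Serpinh1 went from 58.7 ± 2.03 in FVB to 49.8 ± 0.817 and 19.3 ± 0.0433 in the Tg-GRK2-labelled group and in Tg-RKIP, and Plod1 from 20.0 ± 0.4 to 14.9 ± 0.314 and 5.48 ± 0.0139 (SD, n = 3 each).

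**Figure D4:**
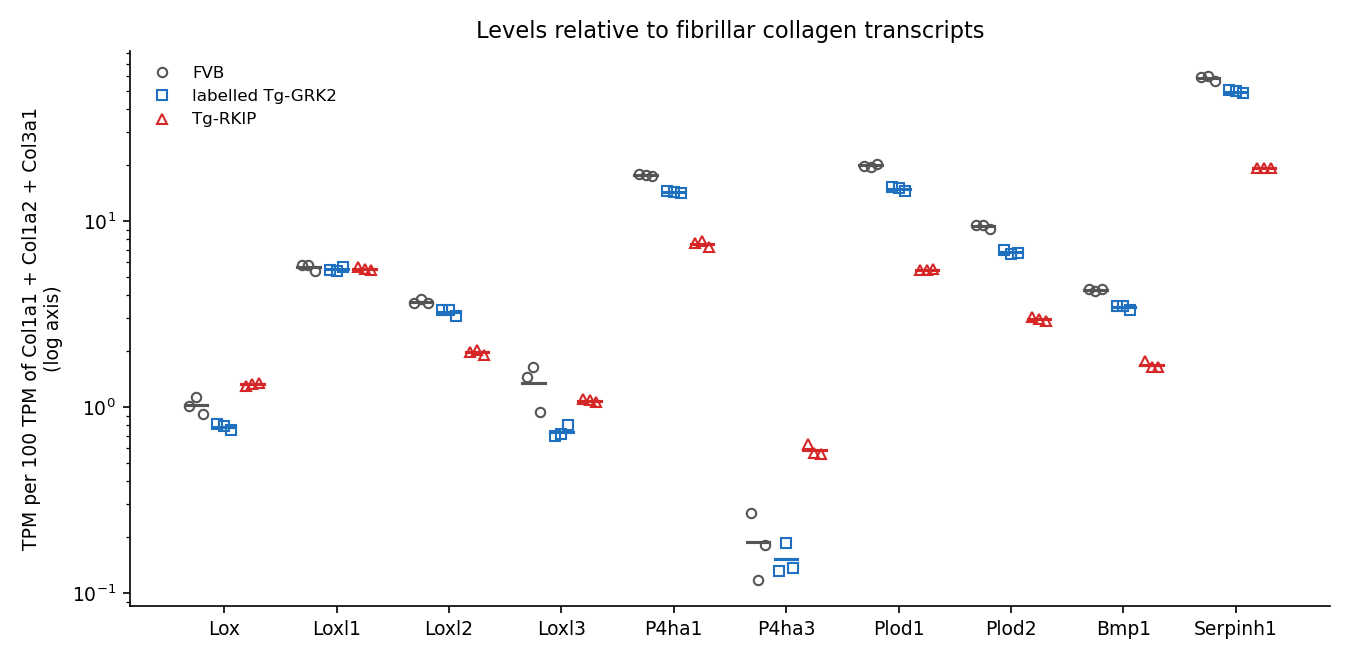
TPM of each gene per 100 TPM of Col1a1, Col1a2 and Col3a1 together, per library on a log axis, with symbols as for the TPM plot and a bar at each group mean. Lox and P4ha3 are highest in Tg-RKIP, Loxl1 is level at 5.36 to 5.84 in all 9 libraries, and Plod1, Plod2, P4ha1, Bmp1 and Serpinh1 step down from FVB to Tg-RKIP.

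Other cell types also moved with the groups. In Tg-RKIP 7 of 8 fibroblast markers were higher than in FVB and 1 was lower, and their summed level was 3670 to 3690 TPM in Tg-RKIP, 1980 to 2030 TPM in the Tg-GRK2-labelled hearts and 1780 to 1810 TPM in FVB. Markers of smooth muscle (4 of 5 higher and 1 lower), macrophages (6 of 6 higher) and mesothelium (4 of 4 higher) moved in Tg-RKIP as well, with summed levels of 766 to 784, 628 to 643 and 65.0 to 67.9 TPM against 316 to 340, 250 to 257 and 24.0 to 26.3 TPM in FVB. Of the 8 fibroblast markers, 6 were higher in the Tg-GRK2-labelled hearts than in FVB, with a median log2 fold change of 0.228 beside 0.232 for the 10 genes, as were 4 of 6 macrophage and 2 of 4 mesothelial markers, while no smooth muscle marker was higher and 2 were lower. In Tg-RKIP endothelial markers were divided, with 3 of 5 higher and 2 lower, and 7 of 8 cardiomyocyte markers were lower. The median log2 fold change of the cardiomyocyte markers was -0.967 with TMM. Their summed level differed less, at 45900 to 46700 TPM in Tg-RKIP against 48400 to 48800 TPM in FVB. Since whole hearts were measured, more cells of a type and more RNA per cell of that type cannot be told apart.

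Some of these markers belong to tissues outside the myocardium. Their counts stand beside the same shares of all genes tested, with 36.8% higher in Tg-RKIP and 12.2% higher in the Tg-GRK2-labelled hearts. The 9 cartilage markers summed to 357 to 364 TPM in Tg-RKIP, 14.5 to 14.8 TPM in the Tg-GRK2-labelled hearts and 14.2 to 15.4 TPM in FVB, and all 7 that could be tested were higher in Tg-RKIP than in FVB. The cartilage genes Col2a1, Matn1, Matn3 and Col9a1 and the bone genes Bglap, Ibsp, Sp7 and Dmp1 had at most 3 reads in every library of the latter 2 groups. Matn1 had at most 3 reads in every Tg-RKIP library as well. The 5 bone markers summed to 63.4 to 65.8 TPM in Tg-RKIP, where all 5 were higher than in FVB, 20.7 to 22.7 TPM in the Tg-GRK2-labelled group and 20.2 to 22.4 TPM in FVB. Adipocyte markers, all 5 higher in Tg-RKIP and 4 of 5 in the Tg-GRK2-labelled hearts, summed to 73.8 to 78.2, 19.5 to 21.6 and 8.50 to 10.1 TPM in Tg-RKIP, that group and FVB. The 5 airway markers summed to 84.7 to 90.2 TPM in Tg-RKIP and 180 to 190 TPM in the Tg-GRK2-labelled hearts, where all 3 tested were higher than in FVB, and each had at most 3 reads in every FVB library. Of these 5, Sftpc had at most 3 reads in every library of both transgenic groups as well.

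Lysyl oxidases and hydroxylases are made by cartilage and bone cells as well as by fibroblasts, and the part of these cells and tissues in the levels of the 10 genes was not tested. Divided by the mean of the fibroblast markers instead of by collagen, 5 of the 10 genes were higher in Tg-RKIP than in FVB without overlap (the 4 lysyl oxidases and P4ha3), beside 9.46% of all genes tested. Lower without overlap were 3 (Plod1, Plod2 and Serpinh1), beside 73.1% of all genes tested, and P4ha1 and Bmp1 overlapped. Of the 10, 4 were higher in the Tg-GRK2-labelled hearts than in FVB (Loxl1, Loxl2, P4ha1 and Serpinh1), beside 3.84% of all genes tested, and Plod2 alone was lower, beside 50.1%. Between Tg-RKIP and FVB the log2 difference on this scale was 2.96 for P4ha3, 1.63 for Lox, 1.22 for Loxl1, 0.978 for Loxl3 and 0.354 for Loxl2, and -0.611 for Plod1.

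Around the 10 genes, 25 further genes of collagen biosynthesis were examined, and all 25 could be tested. In Tg-RKIP 16 were higher than in FVB, 5 were lower and 4 did not pass, with a median log2 fold change of 0.46. Of all genes tested, 36.8% were called higher and 37.1% lower. With scaling to library size alone the split was 21 higher and 2 lower, beside 9710 and 2649 of all 15504 genes. By limma on log2(TPM + 0.1) it was 19 and 1, beside 8932 and 1964 among all genes tested that way. The 3 that rose most were Pcolce (1.77), whose product enhances Bmp1, Adamts2 (1.70), which removes the amino-terminal propeptide, and P3h2 (1.65), a prolyl 3-hydroxylase. The mean TPM of Pcolce was 216.7 in Tg-RKIP against 46.9 in FVB, and that of Adamts2 23.9 against 5.79.

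Several partners of the 10 genes in the endoplasmic reticulum are described here by choice after their values were seen. P4hb, the shared beta subunit of prolyl 4-hydroxylase, had a log2 fold change of 0.46 (SE 0.0206, adjusted p = 8.50e-15), and Plod3, the remaining lysyl hydroxylase, one of 0.695. Crtap (0.976), Ppib (0.747) and P3h1 (0.563), which form the prolyl 3-hydroxylation complex, and Fkbp10 (1.05), which assists Plod2, rose as well. P4ha2, the remaining alpha subunit, differed by 0.232 (adjusted p = 8.60e-07). The galactosyltransferase gene Colgalt1 (0.059) and P3h4 (-0.098), which also act in this compartment, did not pass.

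The 3 that fell most were Adamts3 (-2.04), a further aminopropeptidase, Tll2 (-1.32), a relative of Bmp1, and Colgalt2 (-0.447), a collagen galactosyltransferase, whose TPM values overlapped between the groups. Mia3 and Sec24d, which serve the export of procollagen from the endoplasmic reticulum, were lower with TMM (-0.213 and -0.228) and higher with scaling to library size alone (0.162 and 0.147). The mean TPM of Adamts3 was 0.45 in Tg-RKIP against 1.62 in FVB, and that of Tll2 was low in both, at 0.244 against 0.452.

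Of the 25 genes, 4 were higher and 3 lower in the Tg-GRK2-labelled hearts than in FVB, near the 12.2% of all genes tested in either direction. Higher were Loxl4 (0.67), Adamts2 (0.478), P4ha2 (0.225) and Pcolce (0.206). Loxl4 was low in both groups, with a mean of 0.831 TPM against 0.524 TPM in FVB. Lower were Fkbp10 (-0.239), Tgm2 (-0.187), a transglutaminase that crosslinks matrix proteins by another chemistry, and P4hb (-0.093), while 18 did not pass. The median log2 fold change of the 25 was 0.065, beside 0.232 for the 10 genes and -0.0023 for all genes tested. Between Tg-RKIP and this group 14 of the 25 were higher, 5 lower and 6 not past the threshold, beside 37.9% of all genes higher and 36.6% lower. With scaling to library size alone 20 were higher and 3 lower, beside 9608 and 2847 of all 15504 genes. The 3 largest differences were those of Pcolce (1.57), P3h2 (1.49) and Fkbp10 (1.29), and the 3 lowest those of Adamts3 (-2.05), Tll2 (-1.71) and Colgalt2 (-0.60).

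For each of the 10 genes the most similar genes were sought by the distance between log2 levels over the 9 libraries, after centring on the FVB mean, among genes with at least 100 reads on average. Nearest to Lox were Col12a1 (distance 0.271) and Itgbl1 (0.334), and nearest to Loxl1 were Col1a2 (0.236) and Cdo1 (0.302). Loxl3 lay closest to Bgn (0.312) and Chrdl1 (0.325), and Loxl2 to Rasl11b (0.143) and Fat1 (0.149). P4ha3 had no close counterpart, with Pak3 at 0.962 and Fam180a at 1.03, but itself lay below that minimum, and its 6 to 17 reads in 6 of the libraries add counting error to the distance.

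The genes with smaller changes had closer neighbours in this measure. P4ha1 was nearest to Olfm1 (0.103) and Abat (0.132), and Bmp1 to Cnp (0.0861) and Abat (0.108). Plod1 was nearest to Jak3 (0.097) and Dctn1 (0.0989), Plod2 to Aplp2 (0.0969) and Smox (0.102), and Serpinh1 to Ccdc9b (0.137) and Arid5b (0.157). A distance is the root of the summed squared differences in log2 level, and it carries no test.

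Plod2 and P4ha1 are made in splice forms that differ in coding exons, and the deposited reads are divided among them. The alternative Plod2 exon has 63 bases, or 21 codons, and is the exon by which the longer form of lysyl hydroxylase differs from the shorter. The P4ha1 gene carries 2 exons of 71 bases each, of which a transcript uses either the upstream or the downstream copy. The splice-form shares below count reads assigned to whole annotated transcripts, which differ in other parts as well. The Plod2 transcripts have 3663 bases with the 63-base exon and 3649 bases without it. The exons are shown because the forms compared differ in them. They were read from GENCODE M21 on the plus strand of GRCm38, at chr9:92601985-92602047 for Plod2 and at chr10:59354340-59354410 and chr10:59355350-59355420 for the upstream and downstream P4ha1 exons, and capitals mark the 29 of 71 positions at which the P4ha1 exons differ.
Plod2 alternative exon: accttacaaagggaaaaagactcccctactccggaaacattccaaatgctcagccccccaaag
P4ha1 upstream alternative exon: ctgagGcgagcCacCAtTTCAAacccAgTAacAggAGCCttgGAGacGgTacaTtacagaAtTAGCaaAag
P4ha1 downstream alternative exon: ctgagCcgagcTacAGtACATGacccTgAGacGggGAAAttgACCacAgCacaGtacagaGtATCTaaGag

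The P4ha1 exons are identical at 42 positions, or 59.2%, and both leave the reading frame in the same place, since both follow a whole number of codons and have the same length. The forms with the downstream exon were assigned 65.1%, 66.0% and 60.1% of the P4ha1 reads in Tg-RKIP. Their shares were 63.0%, 66.3% and 65.3% in the Tg-GRK2-labelled hearts and 63.2%, 62.7% and 60.3% in FVB. Read shares are not corrected for the different lengths of the forms and do not measure how often the exon is used. The groups overlapped, and the exact permutation test gave p = 0.5 for Tg-RKIP against FVB and p = 0.2 for the Tg-GRK2-labelled hearts against FVB.

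Another P4ha1 form, which has the downstream exon but lacks a coding exon of 240 bases, took a larger part in Tg-RKIP. Its share of the P4ha1 reads was 40.5%, 36.0% and 35.5% in Tg-RKIP, 25.1%, 18.7% and 27.0% in the Tg-GRK2-labelled hearts and 18.3%, 27.2% and 22.1% in FVB. The Tg-RKIP shares lay above all others, with p = 0.1 by the exact permutation test. Within groups they scattered, in variance, 11.5 times as widely as counting error alone gives in Tg-RKIP, 22.9 times in the Tg-GRK2-labelled hearts and 20.4 times in FVB. The 3 annotated transcripts also end at different points, with 2387 bases in this form against 4043 and 2918 in the others, and how reads common to several forms were divided is not given in the sources used here.

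The Plod2 form with the 63-base exon was the main one in every library. It took 66.9%, 84.0% and 86.8% of the reads of both coding forms in Tg-RKIP, 87.4%, 87.2% and 97.4% in the Tg-GRK2-labelled hearts and 77.0%, 80.9% and 80.8% in FVB. Tg-RKIP and FVB overlapped (exact p = 1.0), and the Tg-GRK2-labelled hearts lay above FVB (exact p = 0.1). Within Tg-RKIP the 3 shares scattered 119 times as widely, in variance, as counting error alone gives, within the Tg-GRK2-labelled group 53.6 times and within FVB 3.11 times, a measure that leaves out any error in assigning reads to forms.

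Of the Bmp1 reads, 76.0%, 63.9% and 72.9% were assigned to the main protein-coding form in Tg-RKIP and 54.9%, 57.6% and 62.0% in FVB, without overlap (exact p = 0.1), and 71.0%, 66.8% and 61.9% in the Tg-GRK2-labelled hearts. Most other Bmp1 reads were assigned to a form annotated as subject to nonsense-mediated decay, with 23.9% to 35.3% in Tg-RKIP and 37.9% to 43.2% in FVB. For Lox the form with 8 exons held 77.5% to 95.9% of the reads in Tg-RKIP, 41.7% to 64.9% in the Tg-GRK2-labelled hearts and 70.8% to 100% in FVB. Relative to counting error, the variance of the main Bmp1 share was 21.5-fold in Tg-RKIP, 6.52-fold in the Tg-GRK2-labelled hearts and 2.75-fold in FVB. That of the Lox share was 81.7-fold, 12.5-fold and 25.1-fold in the same order.

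**Figure D5:**
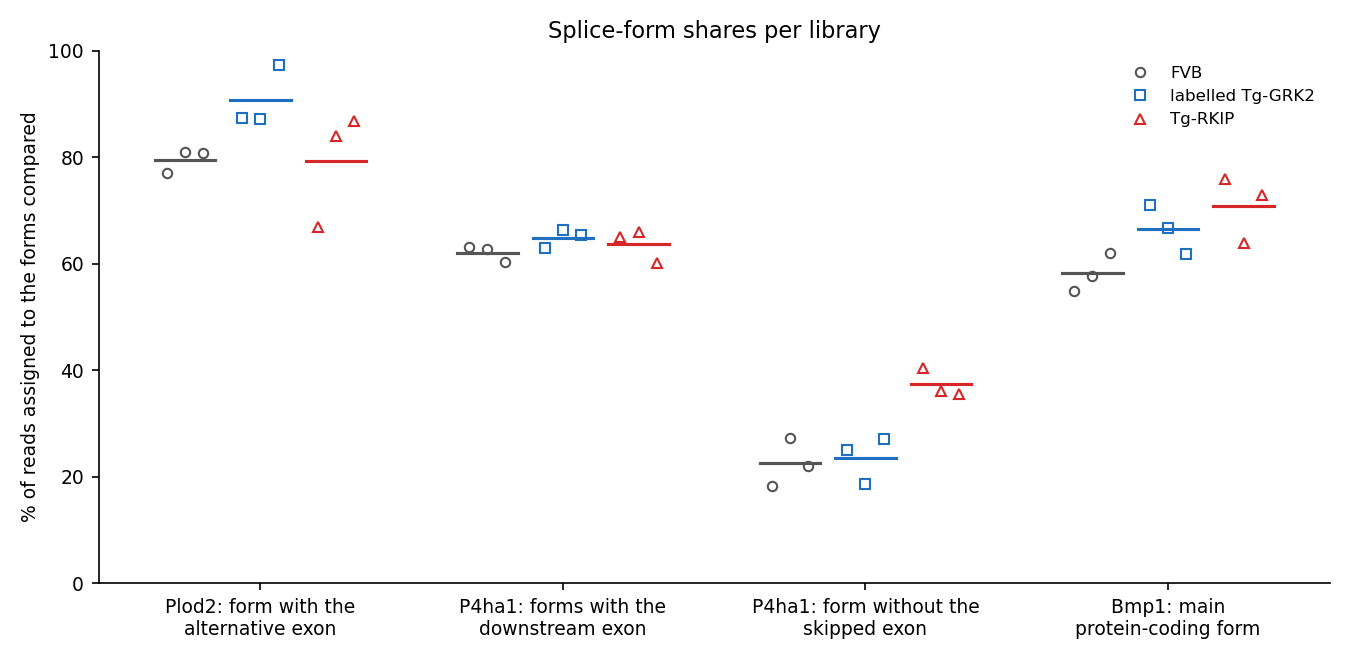
Share of reads assigned to the named splice forms, in percent of the forms compared, per library, with symbols as for the TPM plot and a bar at each group mean. The P4ha1 form without the 240-base exon lies at 35.5% to 40.5% in Tg-RKIP, above all other libraries. The share of the forms with the downstream 71-base exon overlaps between the 3 groups.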

How the data were processed

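The cardiac transcriptome was determined in 3 Tg-RKIP, 3 Tg-GRK2-labelled and 3 FVB hearts, with groups and replicate numbers from the sample labels. The authors deposited read counts per transcript, without normalization, for 127558 transcripts, and TPM values per transcript. These TPM equal the TPM recomputed from counts and deposited lengths to within a relative difference of 0.00326. The submitters' processing notes name GRCm39, in which gene coordinates are given; the aligner, the counting program and the use of strand are not given in the sources used here, and exon sequences come from GENCODE M21 (GRCm38), in which all 5 transcripts concerned have the deposited exon lengths.

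Both were added up per gene name, because the division of reads among transcripts of a gene varied between libraries. Differences in counts were examined by the quasi-likelihood test of edgeR 4.0.16 in R 4.3.3 (TMM, filterByExpr, glmQLFit, glmQLFTest; all 9 libraries, 1 coefficient for each group), with Benjamini-Hochberg adjustment across 15504 genes and 0.05 as threshold. Ratios and shares were compared by exact two-sided permutation tests (scipy 1.17.1), which cannot go below p = 0.1. No pair of libraries was identical. The edgeR p-values rest on the spread between hearts within a group, estimated over all 3 groups together and with information shared across genes. They do not measure the spread of 3 hearts alone. Depth limits the precision most for P4ha3, and next for Lox and Loxl3, which had 114 to 194 reads a library outside Tg-RKIP. In data simulated for Tg-RKIP against FVB with 15262 genes, 79.8% of 1.5-fold and 90.8% of 2-fold changes were recovered, and 6 of 174 calls were false. There 99 genes changed 1.5-fold and 98 changed 2-fold, up and down alike, and all genes had the same spread beyond counting error. In the real comparison 11460 genes were called, so that the simulation cannot show how the calls depend on the scaling.

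The 10 genes, the 25 further genes, the 6 substrates and the lists of markers (cardiomyocyte, fibroblast, smooth muscle, endothelial, macrophage, cartilage, bone, adipocyte, airway, mesothelial) were chosen with earlier results of these data known. All 10 genes and all substrates were named, with the 3 highest and 3 lowest log2 fold changes past the threshold of the 25 per comparison, and the 2 nearest genes of each of the 10 by distance. Other genes of the 25, the splice forms and the ratio to fibroblast markers were chosen after their values were seen. Alternatives were DESeq2 1.42.0 and its size factors, scaling to library size with and without mitochondrially encoded reads, other filters, a fit of only the groups compared, a replicate block, limma 3.58.1 on log2(TPM + 0.1) and log2(TPM + 1), the most abundant transcript alone, other denominators and leaving out each library.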

Additional observations from a re-analysis of the deposited data

How the results depend on the processing

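The number of the 10 genes past the threshold stayed at 9 or 10 for Tg-RKIP against FVB, 6 or 7 for the Tg-GRK2-labelled hearts against FVB and 7 to 10 between the transgenic groups, whichever alternative was used and whichever library was left out. With replicate numbers as a replicate block the counts were 10, 7 and 9, and the block changed no call of the 10 genes. Deviations of same-numbered libraries correlated by -0.046 to 0.051, so that the numbers were not taken as pairs. Against FVB, the genes called among the 25 in the Tg-GRK2-labelled hearts numbered 7, and 4 by limma with either pseudocount. Among all genes 3793 were called there, and 1660 with the most abundant transcript alone. For Tg-RKIP against FVB, all genes split into 5709 higher and 5751 lower with TMM. They split into 9710 and 2649 with scaling to library size alone, and 8932 and 1964 by limma on log2(TPM + 0.1). The same count of the 10 genes thus stands beside different shares of all genes.

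Some differences that had not passed the threshold changed sign or were called under an alternative. In the Tg-GRK2-labelled hearts against FVB, Lox was -0.37 with its most abundant transcript alone, Loxl3 was -0.212 and -0.157 by limma with pseudocounts of 0.1 and 1 and from -0.01 without FVB replicate 3 to 0.137 with other libraries left out, and P4ha3 ranged from -0.042 without FVB replicate 2 to 0.794. Between the transgenic groups Plod1 was 0.311 and 0.121 by library size with and without mitochondrially encoded reads, and 0.34 and 0.333 by limma, all called higher, and -0.061, called lower, with only the groups compared.

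The ratio to collagen depended on the denominator. With the fibroblast markers, chosen after seeing the data, 3 of the 10 genes were lower in Tg-RKIP than in FVB instead of 6, where 73.1% of all genes were instead of 93.6%, and 1 instead of 8 in the Tg-GRK2-labelled hearts, where 50.1% were instead of 80.5%. With Col1a1 alone as denominator 9 of the 10 were lower in Tg-RKIP than in FVB, and with Col3a1 alone 6 were. The shares of all genes were not counted for these 2 denominators. The log2 ratio of Lox in Tg-RKIP was -0.199 with Col1a1 alone, and that of Loxl1 was -0.611 with Col1a1 alone and 0.27 with Col3a1 alone. With the fibroblast markers Loxl2 turned to 0.354 and P4ha1 to 0.026. In the Tg-GRK2-labelled hearts, Loxl2, P4ha1, Bmp1 and Serpinh1 turned to 0.194, 0.067, 0.057 and 0.133 with these markers. The cause was not tested. Leaving out each library gave 6 to 8 and 8 to 9 genes lower relative to collagen.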
